A study of Homo sapiens with 8 samples.

Results

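The genes that make, take up, move and sense cholesterol were followed across the 4 treatment groups in BT-549 cells. The set was chosen by gene symbol, from the known function of each gene, with earlier results of these data known, and 33 of the 23228 genes listed in the count tables belonged to it. It held 8 genes of the mevalonate pathway, 12 of the sterol branch, 5 of the sterol-sensing machinery, 6 of uptake, transport and storage, and 2 oxysterol receptors. A pair of them stand in the tables under older symbols, SC4MOL for MSMO1 and SC5DL for SC5D. All 33 passed edgeR's filter on low counts and were among the 13694 genes tested.

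BT-549 is an established human triple-negative breast cancer (TNBC) cell line, and every group came from this 1 line, grown in medium with fetal bovine serum. Cells received the vehicle DMSO, EC359 at 100 nM, vorinostat at 10 µM, or EC359 and vorinostat together at these doses, each for 24 h. EC359 is a small-molecule inhibitor of the leukemia inhibitory factor receptor (LIFR), and vorinostat is a histone deacetylase inhibitor (HDACi). Bulk RNA-seq gave 2 libraries for each group and 8 in all. The labels do not say that the libraries of a group came from separate cultures, so the p-values measure the spread between these libraries, which may be technical. In the fit on all 8 libraries, each gene had 1 estimate of the spread, shared by every group. The p-value and standard error of a comparison thus also rest on groups outside it.

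Cholesterol is built from acetyl-CoA, first through the mevalonate pathway to farnesyl diphosphate and then through squalene, lanosterol and a series of sterol intermediates. When the endoplasmic reticulum is low in sterol, SCAP escorts the precursor of SREBF2 (SREBP-2) to the Golgi, where MBTPS1 starts its cleavage, and the released factor switches on synthesis and uptake genes together. When sterol is plentiful, INSIG1 and INSIG2 hold SCAP back, and INSIG1 is itself a target of the factor, so the pathway limits itself. Cholesterol that enters by endocytosis leaves the late endosome through NPC2 and NPC1, and oxysterols activate the liver X receptors NR1H2 and NR1H3. BT-549 cells were in medium with serum, a source of lipoprotein cholesterol.

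Libraries held 19069450 to 24759041 counts on genes, and the 33 genes took 0.297% to 0.525% of them. Levels are given as CPM values normalized by TMM (reads of a gene scaled to a common library size), in replicate order. Replicates were compared by the SD, over the 33 genes, of their log2 difference, which came to 0.12 in vehicle, 0.08 in vorinostat, 0.25 in the combination and 0.34 in EC359. The EC359 libraries thus stood farthest apart, and the EC359 changes of the set that passed the test are also given without each of them. The line's markers VIM, FN1, ZEB1, CDH2 and SPARC were present in every library, whereas ESR1, PGR and CDH1 did not exceed 1.02, 0.0511 and 2.21 CPM. ERBB2 was at 96.1 and 102 in vehicle, 76.1 and 80.2 with EC359, 15.8 and 14.8 with vorinostat and 12.03 and 12.6 with the combination (CPM). Its levels in both groups with vorinostat lay far below the rest, and EPCAM and KRT8 stayed under 10 CPM in all libraries. Among markers of other cells, PTPRC, CD3E, PECAM1, VWF and PLIN1 stayed below 1 CPM and ADIPOQ was at 0 throughout. CD68, APOB and ALB varied with library and are given beside NPC1.

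Because SREBP-2 acts at promoters together with NF-Y, which binds the CCAAT box, and with Sp1, which binds the GC box, the upstream sequences of the genes on which the results turn are shown. RefSeq on GRCh38.p14 held windows of 300 bases around the start for 29 of the 33 genes, all but ACAT2, SCARB1, SQLE and FDFT1. Each line gives the 250 bases before the first listed start, 5′ to 3′ on the strand of the gene. Shown first are the 5 genes called in the test, given below, of whether the response to EC359 differed with vorinostat. Those calls depended on the libraries used. Then follow INSIG2, the paralog of INSIG1, the receptor pair NR1H2 and NR1H3, and NPC1, which was added after its values were seen. Capitals mark the CCAAT box on either strand (ATTGG where it lies on the other strand) and the core sterol response element CACNCCAC on either strand.
HMGCS1, chr5:43313413-43313662, minus strand: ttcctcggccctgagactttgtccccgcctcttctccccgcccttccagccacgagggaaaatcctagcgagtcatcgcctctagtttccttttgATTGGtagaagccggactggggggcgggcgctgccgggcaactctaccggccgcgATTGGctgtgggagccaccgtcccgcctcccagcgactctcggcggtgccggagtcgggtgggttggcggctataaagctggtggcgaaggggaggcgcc
MVK, chr12:109573544-109573793, plus strand: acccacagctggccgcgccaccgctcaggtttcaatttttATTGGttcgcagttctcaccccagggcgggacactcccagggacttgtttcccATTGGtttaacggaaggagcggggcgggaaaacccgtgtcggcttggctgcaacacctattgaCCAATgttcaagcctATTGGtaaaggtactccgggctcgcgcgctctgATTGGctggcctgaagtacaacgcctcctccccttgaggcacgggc
SC4MOL, chr4:165327419-165327668, plus strand: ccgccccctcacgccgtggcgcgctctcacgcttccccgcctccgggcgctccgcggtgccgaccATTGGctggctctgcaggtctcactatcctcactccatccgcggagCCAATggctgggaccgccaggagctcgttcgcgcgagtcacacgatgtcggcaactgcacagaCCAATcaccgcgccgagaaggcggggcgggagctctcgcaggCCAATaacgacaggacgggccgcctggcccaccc
DHCR7, chr11:71448394-71448643, minus strand: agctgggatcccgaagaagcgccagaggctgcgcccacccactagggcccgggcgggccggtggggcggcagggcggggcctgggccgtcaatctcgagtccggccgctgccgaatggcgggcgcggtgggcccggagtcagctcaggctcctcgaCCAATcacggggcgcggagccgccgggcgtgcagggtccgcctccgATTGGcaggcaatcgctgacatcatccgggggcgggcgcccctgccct
INSIG1, chr7:155297628-155297877, plus strand: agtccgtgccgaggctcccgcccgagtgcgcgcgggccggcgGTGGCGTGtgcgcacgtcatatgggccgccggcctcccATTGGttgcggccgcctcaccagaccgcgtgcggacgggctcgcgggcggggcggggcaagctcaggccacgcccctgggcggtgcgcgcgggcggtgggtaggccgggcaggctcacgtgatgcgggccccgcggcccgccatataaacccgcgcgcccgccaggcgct
INSIG2, chr2:118088221-118088470, plus strand: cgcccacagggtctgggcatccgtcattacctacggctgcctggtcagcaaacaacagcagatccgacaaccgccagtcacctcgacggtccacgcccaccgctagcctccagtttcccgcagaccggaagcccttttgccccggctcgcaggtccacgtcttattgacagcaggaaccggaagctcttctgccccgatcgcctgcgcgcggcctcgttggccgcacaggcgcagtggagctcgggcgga
NR1H2, chr19:50376207-50376456, plus strand: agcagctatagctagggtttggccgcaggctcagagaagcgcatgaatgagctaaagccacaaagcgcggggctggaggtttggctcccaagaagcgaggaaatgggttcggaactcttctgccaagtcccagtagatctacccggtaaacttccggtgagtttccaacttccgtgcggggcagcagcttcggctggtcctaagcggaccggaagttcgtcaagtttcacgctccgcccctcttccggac
NR1H3, chr11:47248050-47248299, plus strand: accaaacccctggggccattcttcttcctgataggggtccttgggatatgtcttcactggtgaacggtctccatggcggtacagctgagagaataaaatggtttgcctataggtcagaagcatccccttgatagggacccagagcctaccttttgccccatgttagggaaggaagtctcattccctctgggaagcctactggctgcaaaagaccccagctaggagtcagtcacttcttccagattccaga
NPC1, chr18:23586507-23586756, minus strand: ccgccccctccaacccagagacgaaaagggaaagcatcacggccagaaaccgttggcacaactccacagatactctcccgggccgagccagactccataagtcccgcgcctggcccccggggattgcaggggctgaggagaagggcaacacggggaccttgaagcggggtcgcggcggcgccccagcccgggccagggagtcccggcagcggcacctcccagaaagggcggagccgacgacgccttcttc

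MVK held 5 CCAAT boxes in its 300-base window and SC4MOL held 4, whereas the windows printed for INSIG2, NR1H2, NR1H3 and NPC1 held none. Counting both strands and all windows of a gene, the letters CCAAT occurred in 21 of the 29 genes (72.4%), compared with 39.7% of 27305 RefSeq genes. The GC box GGGCGG occurred in 26 of the 29 (89.7%), compared with 48.3%. The core element CACNCCAC occurred in 4 genes, IDI1, INSIG1, SC5DL and SREBF2 (13.8%), compared with 7.05%. The longer form TCACNCCAC, which contains the core, occurred in SREBF2 alone (3.45%, compared with 1.39%), and the E box TCACGTGA in INSIG1 alone (3.45%, compared with 1.18%). The 27305 RefSeq genes include genes not among the 13694 tested, and they were not matched to the set for expression or base content. The higher shares are therefore not shown to be particular to cholesterol genes. The motifs were chosen after the expression values were seen, and a match describes letters in a window, not binding.

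EC359 alone lowered 12 of the 20 synthesis genes and INSIG1, and raised NPC1. Genes counted as called when the adjusted p was below 0.01 and the log2 fold change exceeded 1 in size (edgeR's quasi-likelihood test, adjusted by Benjamini-Hochberg over the 13694 tested genes, given from here on as edgeR adjusted p). By this rule NPC1 was called higher, against 1.94% of all tested genes, and MVK, MVD, LSS and TM7SF2 were called lower, 4 of 33 against 1.72%. With an adjusted p under 0.01 at any fold, 1 of the 33 was higher (3.81% of all genes) and 13 were lower (4.01%). The 13 were ACAT2, HMGCS1, MVK, MVD and IDI1 of the mevalonate pathway, FDFT1, LSS, TM7SF2, SC4MOL, NSDHL, EBP and DHCR7 of the sterol branch, and INSIG1. The median log2 fold change of the 33 was -0.57, compared with -0.02 over all tested genes, and all 20 synthesis genes lay below 0. Without EC359 replicate 1, 19 synthesis genes lay below 0, and without EC359 replicate 2, 18 did. In these fits the EC359 group held 1 library and added nothing to the spread. Whether genes passed in them therefore cannot show how far the EC359 libraries differ. With 1 library of another group left out, all 20 lay below 0 but fewer passed, namely 6 without vehicle replicate 1, 4 without vehicle replicate 2, 7 without either vorinostat library and 8 without either combination library. In a fit on the 4 vehicle and EC359 libraries alone, no synthesis gene passed by edgeR's test, the adjusted p of the 13 ranging from 0.0111 to 0.0851, and NPC1 alone was called among the 33, of which 21 had an unadjusted p under 0.05. 

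No alternative other than that fit ended the EC359 call at any fold of MVK, FDFT1, LSS, DHCR7 or INSIG1. HMGCS1 and MVD were also lost without vehicle replicate 2, ACAT2 without either vehicle library, and SC4MOL without either vehicle or either vorinostat library (adjusted p of at most 0.0424). IDI1, NSDHL and EBP were lost with any 1 vehicle, vorinostat or combination library left out, with an adjusted p of up to 0.0662, 0.0586 and 0.104 over the alternatives, and EBP also with total counts. TM7SF2 was lost in 9 of 16 alternatives, among them a replicate block and every single library left out other than EC359 replicate 2 (adjusted p of up to 0.0697).

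The size of the change moved with the EC359 library used. Without EC359 replicate 1 and without replicate 2, in that order, the log2 change with EC359 was -0.75 and -0.94 for ACAT2, -0.93 and -0.78 for HMGCS1, -1.24 and -1.52 for MVK, -1.21 and -1.86 for MVD and -0.71 and -0.45 for IDI1. In the sterol branch it was -0.82 and -0.88 for FDFT1, -0.92 and -1.19 for LSS, -1.18 and -1.93 for TM7SF2, -0.63 and -0.95 for SC4MOL, -0.49 and -0.64 for NSDHL, -0.53 and -0.93 for EBP and -0.86 and -1.04 for DHCR7. It was -0.84 and -1.05 for INSIG1 and 2.34 and 2.21 for NPC1. Each kept its sign, and HMGCS1, IDI1 and NPC1 were the genes with the smaller change without replicate 2. In bulk RNA, fewer cells with a transcript and less transcript per cell cannot be told apart.

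Vorinostat alone raised both INSIG genes and lowered ACAT2. Called higher were 7 of the 33 genes, against 16.8% of all genes, namely IDI1, TM7SF2, INSIG1, INSIG2, MYLIP, STARD4 and NR1H3. Only ACAT2 was called lower, against 13.3%. At any fold, 15 were higher (26.2% of all genes) and 3 lower (25.9%). The median of the 33 was 0.06, compared with 0.03 over all genes, so that the set as a whole sat near the centre of the transcriptome while single genes moved by up to 2.96 on the log2 scale. The vorinostat changes of GGPS1, LSS and HSD17B7 were lost with any 1 vehicle or vorinostat library left out (adjusted p of up to 0.0472), that of HSD17B7 also with a replicate block, and that of NR1H2 without vorinostat replicate 1 (adjusted p = 0.0122).

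The combination against vehicle gave 8 genes called higher, TM7SF2, INSIG1, INSIG2, MYLIP, NPC1, STARD4, SOAT1 and NR1H3, against 19.5% of all genes. The 4 called lower were ACAT2, LSS, SCARB1 and NR1H2, against 15.3%. At any fold, 15 were higher (29.7% of all genes) and 8 were lower (26.7%). The synthesis genes split, 6 higher and 5 lower of 20 at any fold, with a median log2 fold change of 0.05 that was -0.03 when libraries were scaled by total counts. The uptake, transport and storage genes had a median of 1.44, with 5 of 6 higher, compared with 0.07 over all genes. In this comparison MVD, HSD17B7 and SCAP were lost with any 1 vehicle, vorinostat or combination library left out, MYLIP with any of these left out but combination replicate 2, and NR1H3 with any of these left out but combination replicate 1 (adjusted p of up to 0.0931). LBR was lost without either vehicle library or combination replicate 2, and MBTPS1 without vehicle replicate 2.

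Adding EC359 to vorinostat called 2 of the 33 genes, NPC1 higher and LSS lower, against 3.37% and 0.876% of all genes. Over all genes, 79.4% of the calls in this comparison were in the higher direction, or 67.6% when scaling used total counts. At any fold, 4 were higher (8.45% of all genes), namely HMGCS1, SC5DL, NPC1 and SOAT1. The 5 that were lower, against 5.26%, were FDFT1, LSS, SCAP, MBTPS1 and SCARB1. The median of the 33 was -0.03, compared with -0.01 over all genes. NPC1, LSS and SCARB1 passed in each of the 16 alternatives. SC5DL, SOAT1 and MBTPS1 were lost with any 1 vorinostat or combination library left out, FDFT1 with any of these left out but combination replicate 1, and HMGCS1 and SCAP with any 1 vehicle, vorinostat or combination library left out (adjusted p of up to 0.100 for HMGCS1 and 0.0544 for the others).

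Adding vorinostat to EC359 called 14 genes higher, against 19.8% of all genes, and 2 lower, SCARB1 and NR1H2, against 13.9%. The 14 were HMGCS1, MVK, IDI1, SQLE, TM7SF2, SC4MOL, HSD17B7, DHCR7, INSIG1, INSIG2, MYLIP, STARD4, SOAT1 and NR1H3. At any fold, 21 were higher (29.5% of all genes) and 5 lower (26.3%). The median of the 33 was 0.84, compared with 0.06 over all genes. Lost in the fit on the 4 combination and EC359 libraries and with any 1 vorinostat or combination library left out were MVD, SCAP and NPC1, and MBTPS1 was lost in the first of these (adjusted p of up to 0.0430). The comparisons with vehicle share the vehicle libraries, and the comparisons with the combination share the combination libraries. EC359 against vehicle and the combination against EC359 share the EC359 libraries with opposite sign, so a low EC359 pair lowers the first and raises the second. Likewise, vorinostat against vehicle and the combination against vorinostat share the vorinostat libraries. The interaction of the drugs, given below, uses all 4 groups.

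**Figure D1:**
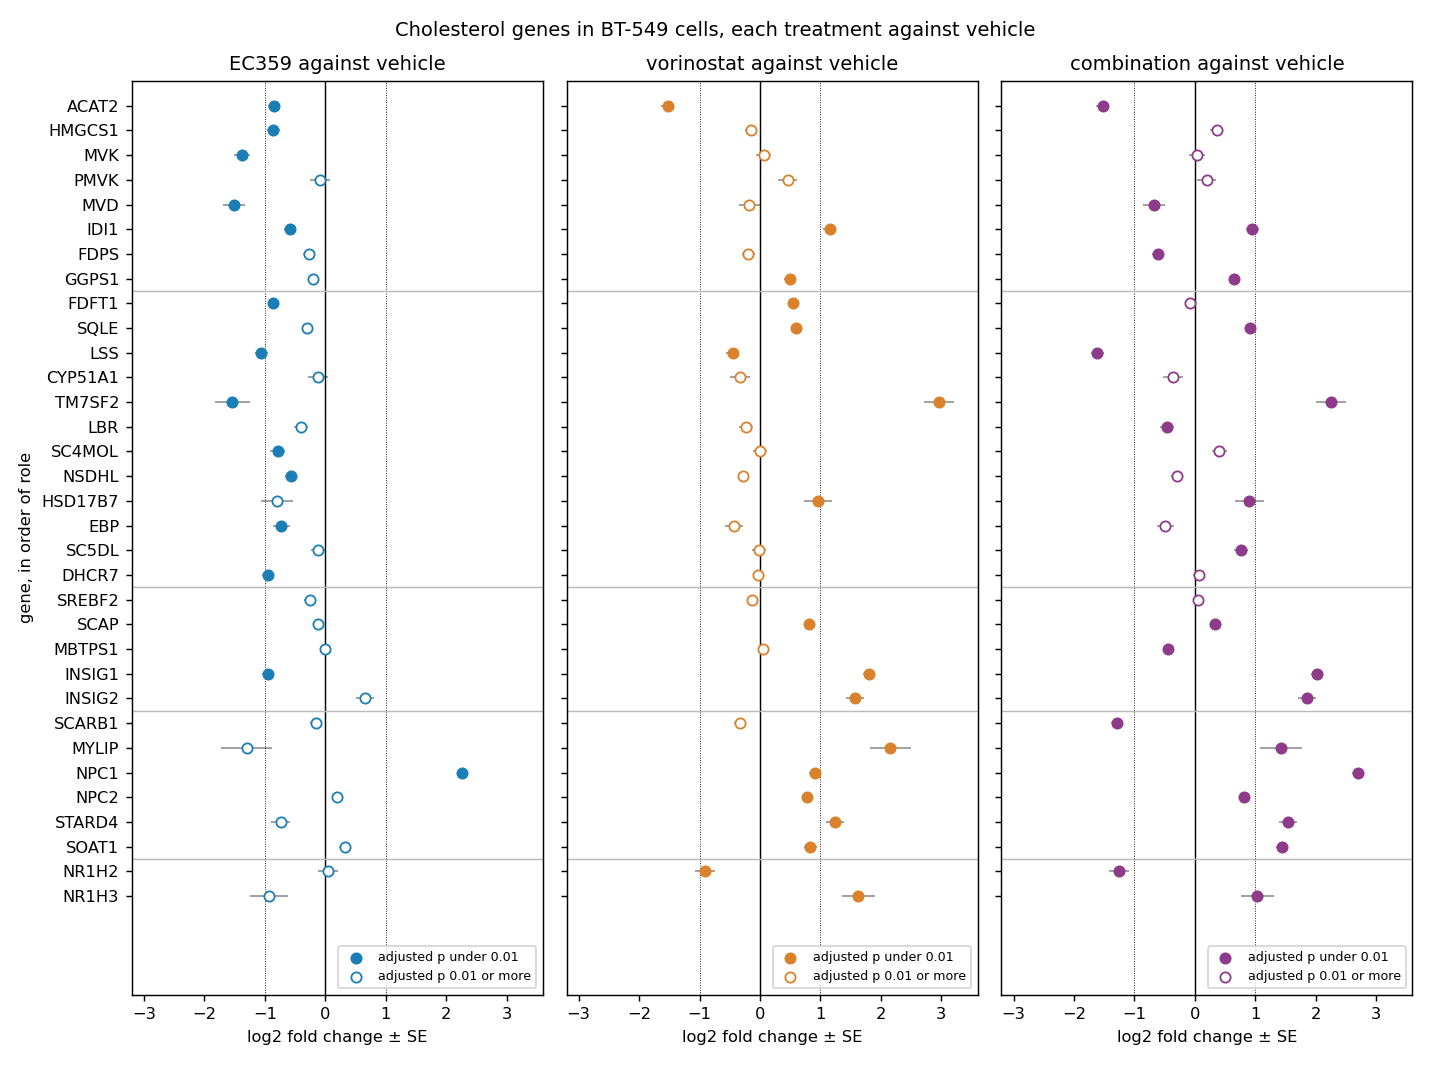
Log2 fold change of each of the 33 genes against vehicle with EC359 (left), vorinostat (middle) and the combination (right), from edgeR with 2 libraries a group. Bars are standard errors, filled points have an adjusted p under 0.01, dotted lines mark an absolute log2 fold change of 1, and grey lines separate the roles. In the left panel the 20 synthesis genes lie below 0 and NPC1 lies at 2.27.

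In the mevalonate pathway, ACAT2, the cytosolic thiolase that joins acetyl-CoA units, was the gene most lowered by vorinostat. Its normalized CPM was 132 and 133 in vehicle, 68.6 and 78.6 with EC359, 47.1 and 44.9 with vorinostat and 48.8 and 43.3 with the combination. Each treated group lay below vehicle without overlap. ACAT2 fell by 0.85 ± 0.11 on the log2 scale with EC359 (± SE, edgeR adjusted p = 0.000772) and by 1.52 ± 0.11 with vorinostat (edgeR adjusted p = 3.35e-06). With EC359 added to vorinostat the difference was 0.00 ± 0.11 (edgeR adjusted p = 0.994). Its exons overlap those of SOD2 and TCP1 on the opposite strand over 22.2% of their length, and whether reads were counted by strand is not given in the sources used here.

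HMGCS1, the HMG-CoA synthase of the cytosol (chr5:43287572-43313614 on the minus strand of GRCh37), was at 193 and 200.5 in vehicle, 113 and 103 with EC359, 175 and 179 with vorinostat and 274 and 230.1 with the combination. EC359 alone gave the lowest libraries and the combination the highest, and no groups overlapped. The log2 change was -0.86 ± 0.11 with EC359 alone (edgeR adjusted p = 0.000702) but 0.51 ± 0.10 when EC359 was added to vorinostat (edgeR adjusted p = 0.00745). The last change was under the fold threshold. It was lost in 9 of 16 alternatives, with RLE scaling, total counts, a replicate block or any 1 vehicle, vorinostat or combination library left out.

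MVK, mevalonate kinase (chr12:110011060-110035930 on the plus strand), was at 28.7 and 30.1 in vehicle, 10.2 and 12.4 with EC359, 30.3 and 31.1 with vorinostat and 29.3 and 30.9 with the combination. The EC359 libraries lay apart from the other 6, which spanned a narrow range. MVK fell by 1.38 ± 0.13 with EC359 alone (edgeR adjusted p = 0.000172), and its log2 difference between combination and vehicle was 0.03 ± 0.13 (edgeR adjusted p = 0.825). MVD, the mevalonate diphosphate decarboxylase, was at 82.9 and 96.5 in vehicle, 24.5 and 38.6 with EC359, 77.5 and 81.1 with vorinostat and 56.9 and 55.8 with the combination. It had the lowest libraries with EC359, and these also differed from each other. MVD fell by 1.51 ± 0.19 with EC359 (edgeR adjusted p = 0.000712) and by 0.67 ± 0.18 with the combination (edgeR adjusted p = 0.00881).

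IDI1, which isomerizes isopentenyl diphosphate, was at 133 and 126 in vehicle, 93.9 and 78.7 with EC359, 286 and 286 with vorinostat and 251 and 248 with the combination. EC359 libraries were the lowest and both groups with vorinostat the highest, with a wide gap between. IDI1 fell by 0.58 ± 0.10 with EC359 (edgeR adjusted p = 0.00492) and rose by 1.15 ± 0.10 with vorinostat (edgeR adjusted p = 1.2e-05). Its exons share 15.0% of their length with IDI2-AS1 on the opposite strand. Of the remaining genes, PMVK, phosphomevalonate kinase, passed in no comparison, with log2 changes from -0.26 to 0.46. FDPS, farnesyl diphosphate synthase, fell with the combination against vehicle (-0.61 ± 0.10, edgeR adjusted p = 0.000656). GGPS1, which makes geranylgeranyl diphosphate for protein prenylation, rose with vorinostat (0.49 ± 0.09) and with the combination (0.65 ± 0.09), and with EC359 alone its value was -0.20 ± 0.09, which did not pass.

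In the sterol branch, LSS, the lanosterol synthase that closes the sterol ring system, was lowered by EC359 both with and without vorinostat. It was at 233 and 228 in vehicle, 100.5 and 121 with EC359, 163 and 173 with vorinostat and 74.3 and 75.99 with the combination. The 4 groups did not overlap, and the combination was lowest. LSS fell by 1.06 ± 0.11 with EC359 alone (edgeR adjusted p = 0.000207) and by 1.16 ± 0.11 when EC359 was added to vorinostat (edgeR adjusted p = 0.000116). The interaction of the drugs was -0.11 ± 0.15 (edgeR adjusted p = 0.745). FDFT1, the squalene synthase that commits farnesyl diphosphate to sterols, also fell in both settings, by 0.86 ± 0.08 with EC359 alone and by 0.62 ± 0.08 on top of vorinostat (edgeR adjusted p = 0.000134 and 0.000751). Vorinostat alone raised FDFT1 by 0.54 ± 0.08, and the combination mean of 322 ± 7.81 CPM lay near the vehicle mean of 341 ± 8.45 (SD, n = 2).

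SQLE, squalene epoxidase, was at 395 and 382 in vehicle, 337 and 295 with EC359, 589 and 588 with vorinostat and 724 and 741 with the combination. The levels were ordered EC359, vehicle, vorinostat, combination, with no overlap between groups. SQLE rose by 0.60 ± 0.09 with vorinostat (edgeR adjusted p = 0.000272) and by 0.92 ± 0.09 with the combination (edgeR adjusted p = 1.64e-05), and the change with EC359 of -0.30 ± 0.09 did not pass (edgeR adjusted p = 0.0476).

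TM7SF2 and LBR encode sterol C14 reductases that can stand in for each other. TM7SF2 was at 5.15 and 6.63 in vehicle, 1.53 and 2.59 with EC359, 47.5 and 44.5 with vorinostat and 33.4 and 22.9 with the combination. Libraries with vorinostat lay far above the others, and those with EC359 alone were lowest. TM7SF2 rose by 2.96 ± 0.25 with vorinostat (edgeR adjusted p = 8.5e-06), the largest vorinostat change of the 33 genes by absolute log2 fold change. It fell by 1.54 ± 0.29 with EC359 (edgeR adjusted p = 0.00768), a call lost in 9 of 16 alternatives. LBR, also a nuclear envelope protein, moved little by comparison and passed only against vehicle with the combination (-0.46 ± 0.11, edgeR adjusted p = 0.00543).

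SC4MOL, the C4-methylsterol oxidase (chr4:166248819-166264316 on the plus strand), was at 93.5 and 99.9 in vehicle, 49.9 and 62.3 with EC359, 96.3 and 96.2 with vorinostat and 135 and 122 with the combination. EC359 libraries were lowest, the combination highest, and vehicle and vorinostat overlapped. SC4MOL fell by 0.79 ± 0.12 with EC359 alone (edgeR adjusted p = 0.00251), and its change on top of vorinostat, 0.41 ± 0.12, did not pass (edgeR adjusted p = 0.0305). NSDHL and HSD17B7 carry on the removal of the C4 methyl groups. NSDHL fell with EC359 (-0.57 ± 0.09, edgeR adjusted p = 0.00364), and it passed in no other comparison. HSD17B7 was low throughout, at 3.68 and 3.83 in vehicle, 2.60 and 1.67 with EC359, 7.15 and 7.48 with vorinostat and 6.09 and 7.97 with the combination. It rose by 0.96 ± 0.24 with vorinostat (edgeR adjusted p = 0.00597). Reads that align equally well to its copy HSD17B7P2 would not be counted on either gene.

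DHCR7, the reductase that finishes cholesterol from its 7-dehydro precursor (chr11:71139239-71163914 on the minus strand), was at 244 and 235 in vehicle, 116 and 132 with EC359, 234 and 237 with vorinostat and 242 and 260.1 with the combination. As with MVK, the EC359 libraries alone stood low, and the other 6 lay close together. DHCR7 fell by 0.95 ± 0.09 with EC359 (edgeR adjusted p = 0.000204), and its combination against vehicle value was 0.07 ± 0.09 (edgeR adjusted p = 0.54). EBP, a sterol isomerase earlier in the branch, fell with EC359 (-0.73 ± 0.14, edgeR adjusted p = 0.0095). This change, under the fold threshold, was lost in 8 of 16 alternatives. SC5DL, the C5 desaturase, was higher in both combination libraries (98.00 and 93.6 CPM) than in any other library, where it lay between 46.6 and 57.6 CPM. It rose by 0.79 ± 0.12 when EC359 was added to vorinostat (edgeR adjusted p = 0.00158). CYP51A1, the lanosterol demethylase, passed in no comparison, with log2 changes from -0.37 to -0.03.

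**Figure D2:**
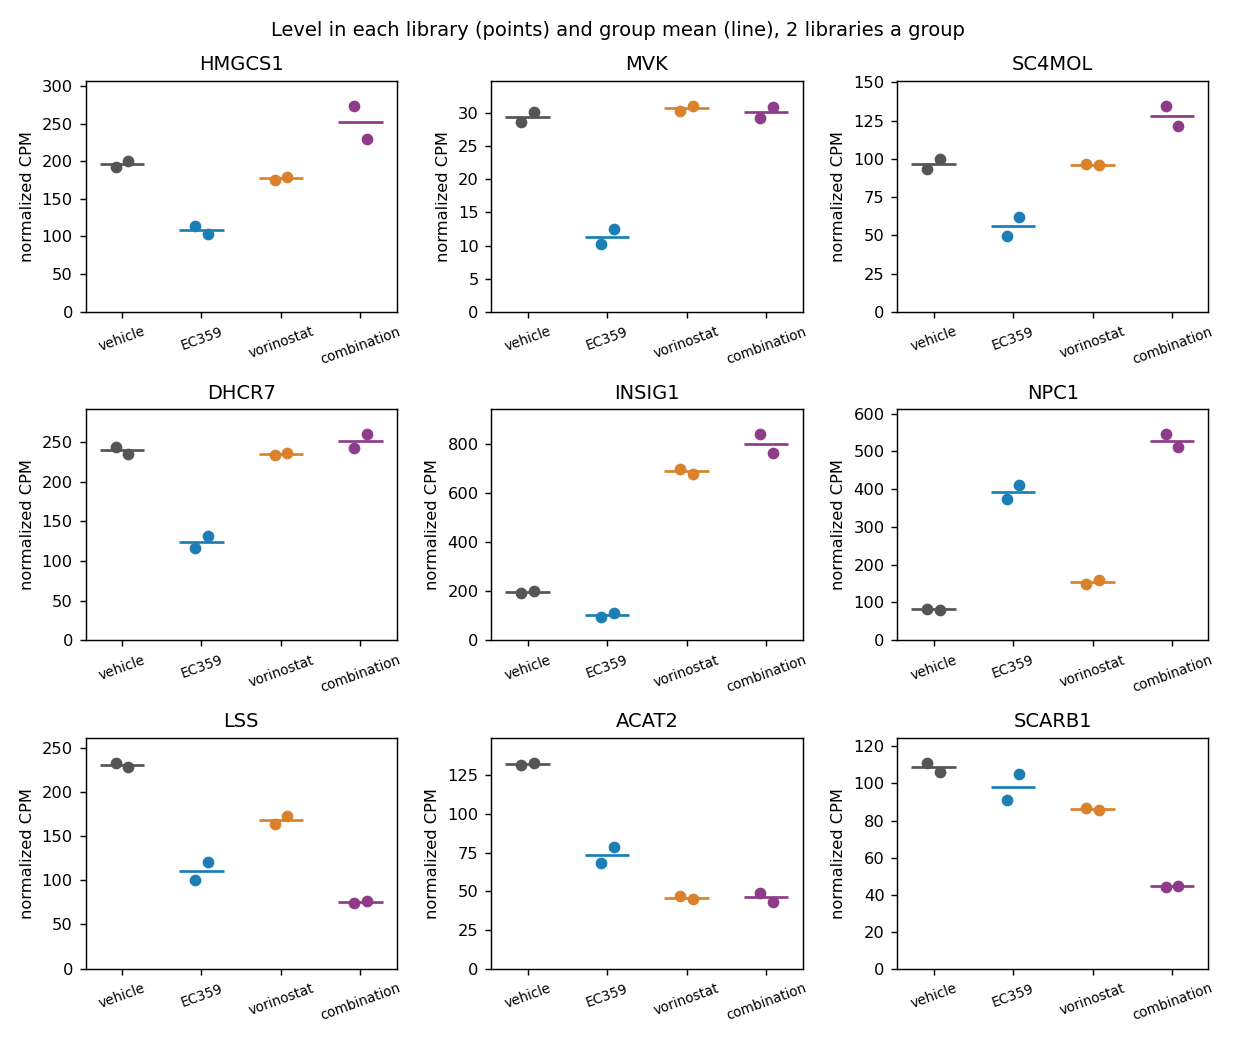
Normalized CPM of 9 genes in each library (points) with the mean of each group (line), 2 libraries a group, each axis starting at 0. HMGCS1, MVK, SC4MOL, DHCR7 and INSIG1 were lowest in the 2 EC359 libraries and NPC1 was higher in every treated library than in vehicle.

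Among the sensing genes, the transcript of SREBF2, the transcription factor of the pathway, passed in no comparison. SREBF2 was at 155 and 152 in vehicle, 121 and 137 with EC359, 141 and 141 with vorinostat and 152 and 168 with the combination. Its lowest library was 1 of the EC359 pair and its highest 1 of the combination pair, and its log2 changes in the 5 comparisons ran from -0.25 to 0.31. SCAP, the sterol-sensing escort, rose with vorinostat by 0.81 ± 0.08 (edgeR adjusted p = 3.43e-05) and fell by 0.48 ± 0.08 when EC359 was added to it (edgeR adjusted p = 0.00344). MBTPS1, the site-1 protease, stood at 326 ± 6.002 CPM in vehicle and 327 ± 17.7 with EC359 (SD, n = 2). It fell by 0.51 ± 0.08 when EC359 was added to vorinostat (edgeR adjusted p = 0.00236).

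INSIG1 (chr7:155089486-155101945 on the plus strand) was at 194 and 200.4 in vehicle, 94.7 and 109.9 with EC359, 699 and 679 with vorinostat and 840.3 and 763 with the combination. The EC359 libraries were the lowest, and all libraries with vorinostat lay above all libraries without it. INSIG1 fell by 0.95 ± 0.10 with EC359 alone (edgeR adjusted p = 0.000252) and rose by 1.80 ± 0.10 with vorinostat (edgeR adjusted p = 9.04e-07). INSIG2 was lower throughout, at 15.9 and 15.5 in vehicle, 22.6 and 27.2 with EC359, 46.5 and 46.5 with vorinostat and 63.5 and 49.8 with the combination. Every treated library was above both vehicle libraries. INSIG2 rose by 1.57 ± 0.15 with vorinostat (edgeR adjusted p = 1.94e-05), and with EC359 its change of 0.66 ± 0.15 did not pass (edgeR adjusted p = 0.0163), so that the paralogs had opposite signs under EC359.

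Among the genes of uptake, transport and storage, NPC1, the membrane protein that exports cholesterol from late endosomes and lysosomes (chr18:21086148-21166470 on the minus strand), had the largest EC359 change of the 33 by absolute log2 fold change. NPC1 was at 82.8 and 80.7 in vehicle, 375 and 412 with EC359, 149 and 158 with vorinostat and 545 and 512 with the combination. The 4 groups did not overlap, with vehicle lowest, then vorinostat, EC359 and the combination. NPC1 rose by 2.27 ± 0.09 with EC359 (edgeR adjusted p = 1.81e-06), by 0.91 ± 0.09 with vorinostat (edgeR adjusted p = 2.54e-05) and by 1.78 ± 0.09 when EC359 was added to vorinostat (edgeR adjusted p = 3.28e-06). The interaction was -0.48 ± 0.13 and did not pass (edgeR adjusted p = 0.055). NPC1 was called with EC359 in each of the 16 alternatives run, with log2 changes from 2.21 to 2.34.

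The lysosomal glycoprotein CD68, listed here as a marker of macrophages, moved in the same groups as NPC1, at 47.3 and 39.8 in vehicle, 202 and 120.2 with EC359, 71.8 and 72.7 with vorinostat and 222 and 267 with the combination. The other markers of blood and endothelial cells were near 0, with PTPRC at most 0.708 CPM and CD3E at most 0.0425 CPM. Summed over the 5 markers of that list, the range was 40.6 to 48.1 CPM in vehicle, 120.4 to 203 with EC359, 72.8 to 73.7 with vorinostat and 223 to 268 with the combination. The hepatocyte marker APOB was at 1.98 and 0.0467 in vehicle, 19.5 and 7.41 with EC359, 13.7 and 1.62 with vorinostat and 0.716 and 6.43 with the combination and differed widely within each group, while both EC359 libraries exceeded both vehicle libraries. ALB, also a hepatocyte marker, was at 0.0472 and 0.0467 CPM in vehicle and 2.93 and 0 with EC359. It was at 0 and 2.42 CPM with vorinostat and 0.358 and 0.562 with the combination. Summed over the 4 adipocyte and hepatocyte markers, the range was 0.280 to 2.08 CPM in vehicle, 7.41 to 22.5 with EC359, 4.55 to 13.9 with vorinostat and 1.64 to 7.15 with the combination. Their part in the results was not tested.

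NPC2, the soluble partner that hands cholesterol to NPC1, rose with vorinostat (0.78 ± 0.09, edgeR adjusted p = 6.15e-05) and with EC359 alone had a value of 0.20 ± 0.09, which did not pass (edgeR adjusted p = 0.162). SOAT1, which esterifies cholesterol for storage in droplets, was at 104 and 114 in vehicle, 131 and 143 with EC359, 193 and 197 with vorinostat and 318 and 277 with the combination. Its level was highest in the combination, with no overlap between groups. SOAT1 rose by 0.83 ± 0.10 with vorinostat (edgeR adjusted p = 9.34e-05) and by 0.61 ± 0.10 when EC359 was added to it (edgeR adjusted p = 0.00269). STARD4, a cytosolic sterol carrier, was at 33.1 and 38.7 in vehicle, 18.9 and 24.3 with EC359, 82.8 and 86.9 with vorinostat and 115 and 93.7 with the combination. Libraries with EC359 alone were lowest and libraries with vorinostat highest. STARD4 rose by 1.24 ± 0.15 with vorinostat (edgeR adjusted p = 8.96e-05), and its EC359 change of -0.74 ± 0.15 did not pass (edgeR adjusted p = 0.0121).

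SCARB1, the receptor for high-density lipoprotein, was at 111 and 106 in vehicle, 90.9 and 105 with EC359, 86.7 and 85.9 with vorinostat and 43.96 and 44.8 with the combination. The combination stood apart, below every other library. SCARB1 fell by 1.29 ± 0.10 with the combination against vehicle (edgeR adjusted p = 4.45e-06) and by 0.96 ± 0.10 when EC359 was added to vorinostat (edgeR adjusted p = 0.000258). Its values with EC359 alone (-0.15 ± 0.10) and with vorinostat alone (-0.33 ± 0.10) did not pass, and the interaction of -0.81 ± 0.14 narrowly missed (edgeR adjusted p = 0.0113). MYLIP, the ubiquitin ligase that degrades lipoprotein receptors, was low, at 2.12 and 2.90 in vehicle, 0.577 and 1.52 with EC359, 11.9 and 10.6 with vorinostat and 8.14 and 5.41 with the combination. Libraries with vorinostat lay above the rest. MYLIP rose by 2.16 ± 0.34 with vorinostat (edgeR adjusted p = 0.000466) and by 1.43 ± 0.35 with the combination (edgeR adjusted p = 0.00519).

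The oxysterol receptors moved in opposite directions with vorinostat. NR1H2, the widely expressed form, was at 60.99 and 64.6 in vehicle, 52.8 and 77.4 with EC359, 32.5 and 33.9 with vorinostat and 27.3 and 25.3 with the combination. The EC359 libraries straddled vehicle, and all libraries with vorinostat were lower. NR1H3, the form best known from liver and macrophages, was at 2.45 and 2.76 in vehicle, 1.40 and 1.32 with EC359, 8.80 and 7.31 with vorinostat and 3.99 and 6.69 with the combination. All libraries with vorinostat lay above vehicle, and those with EC359 alone below it. NR1H2 fell by 0.92 ± 0.16 (edgeR adjusted p = 0.000981) and NR1H3 rose by 1.62 ± 0.27 (edgeR adjusted p = 0.000662) with vorinostat. The combination call of NR1H3, 1.03 ± 0.28 (edgeR adjusted p = 0.00872), was lost in 7 of 16 alternatives, total counts and a replicate block among them. Exons of NR1H2 and NAPSA overlap on opposite strands over 22.1% of the NR1H2 length, and those of NR1H3 and ACP2 over 4.17%.

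The design also asks whether EC359 acted differently when vorinostat was present. The test of this interaction, the EC359 effect with vorinostat minus that without it on the log2 scale, was called at an adjusted p under 0.01 at any size. It called 5 of the 33 genes higher, against 1.62% of all genes, and none lower, against 0.482%, although 4 genes had an unadjusted p under 0.05 in the lower direction and DESeq2 called 3 lower. The 5 were HMGCS1 (1.37 ± 0.15, edgeR adjusted p = 0.00125), MVK (1.35 ± 0.18, 0.00385), SC4MOL (1.20 ± 0.17, 0.0046), DHCR7 (1.05 ± 0.13, 0.00269) and INSIG1 (1.17 ± 0.14, 0.00177). Each fell with EC359 alone past the test, and on top of vorinostat their log2 changes lay between -0.03 and 0.51. The fall with EC359 alone is part of the interaction value, so the 2 are not separate findings. The upstream sequences shown for these 5 genes each hold a CCAAT box. Genes not called for the interaction hold it too, among them FDPS, MVD and EBP with 3 each and LSS with 1. The sequences shown for INSIG2, NR1H2, NR1H3 and NPC1, also not called, hold none. Over the same 250 bases before the first listed start, 18 of the 29 genes hold one (62.1%), compared with 33.04% of 27305 RefSeq genes.

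The 28 genes not called included some with EC359 changes of similar size in both settings. LSS fell in both, and the median interaction over the 33 genes was 0.38, compared with 0.02 over all genes. Of the 20 synthesis genes, 17 had an interaction above 0. All 20 lay below 0 with EC359 alone, a change that enters the interaction with its sign reversed. The number called depended on the libraries. It was 0 by edgeR's test without either vehicle library, either vorinostat library or combination replicate 1 (15 to 19 of the 33 with an unadjusted p under 0.05), 1 without combination replicate 2, and 15 without EC359 replicate 1 or replicate 2. DESeq2 on all 8 libraries called 13, 10 higher and 3 lower. In these fits the group left with 1 library was assumed to vary like the others.

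**Figure D3:**
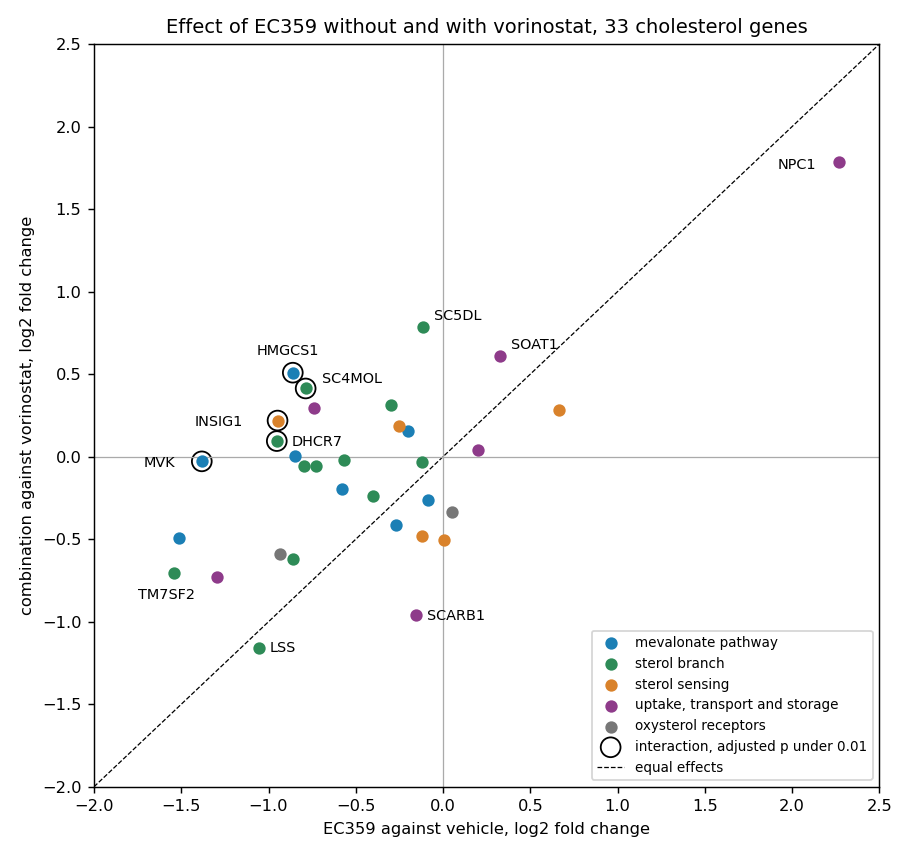
Log2 fold change with EC359 alone (EC359 against vehicle, horizontal axis) and with EC359 added to vorinostat (combination against vorinostat, vertical axis) for each of the 33 genes, coloured by role. The dashed line marks equal effects, and circles mark the 5 genes called for the interaction, which lie to the left of it. The 2 axes share no library.

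Levels between genes were compared per length, as RPKM, which divides the normalized CPM by the length of the canonical transcript in kilobases (mean ± SD, n = 2), with lengths from GENCODE on GRCh37. In vehicle the highest of the 33 were FDFT1 at 168 ± 4.15, NPC2 at 137 ± 1.29 and SQLE at 131 ± 3.12 RPKM. FDFT1 lay above the other two by more than their spread, and SQLE lay closest to NPC2. The lowest were HSD17B7 at 2.46 ± 0.0686, NR1H3 at 1.41 ± 0.115 and MYLIP at 0.817 ± 0.178 RPKM. LSS at 47.1 ± 0.759 and IDI1 at 47.1 ± 1.81 RPKM did not differ beyond their spread.

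Treatment changed this order. NPC1 ranked 23 of 33 in vehicle at 17.2 ± 0.323 RPKM, and 5 with EC359 at 82.7 ± 5.49 RPKM and with the combination at 111 ± 5.002 RPKM. INSIG1 ranked 8 in vehicle at 67.9 ± 1.49 RPKM, 12 with EC359 at 35.2 ± 3.69, 2 with vorinostat at 237 ± 4.85 and 1 with the combination at 276 ± 18.9. Between the reductases, LBR exceeded TM7SF2 per length in vehicle (27.9 ± 1.32 and 3.73 ± 0.667 RPKM), whereas with vorinostat TM7SF2 was at 29.2 ± 1.35 and LBR at 23.8 ± 0.727 RPKM. NR1H2 exceeded NR1H3 in every group, with the smallest gap in the libraries with vorinostat.

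**Figure D4:**
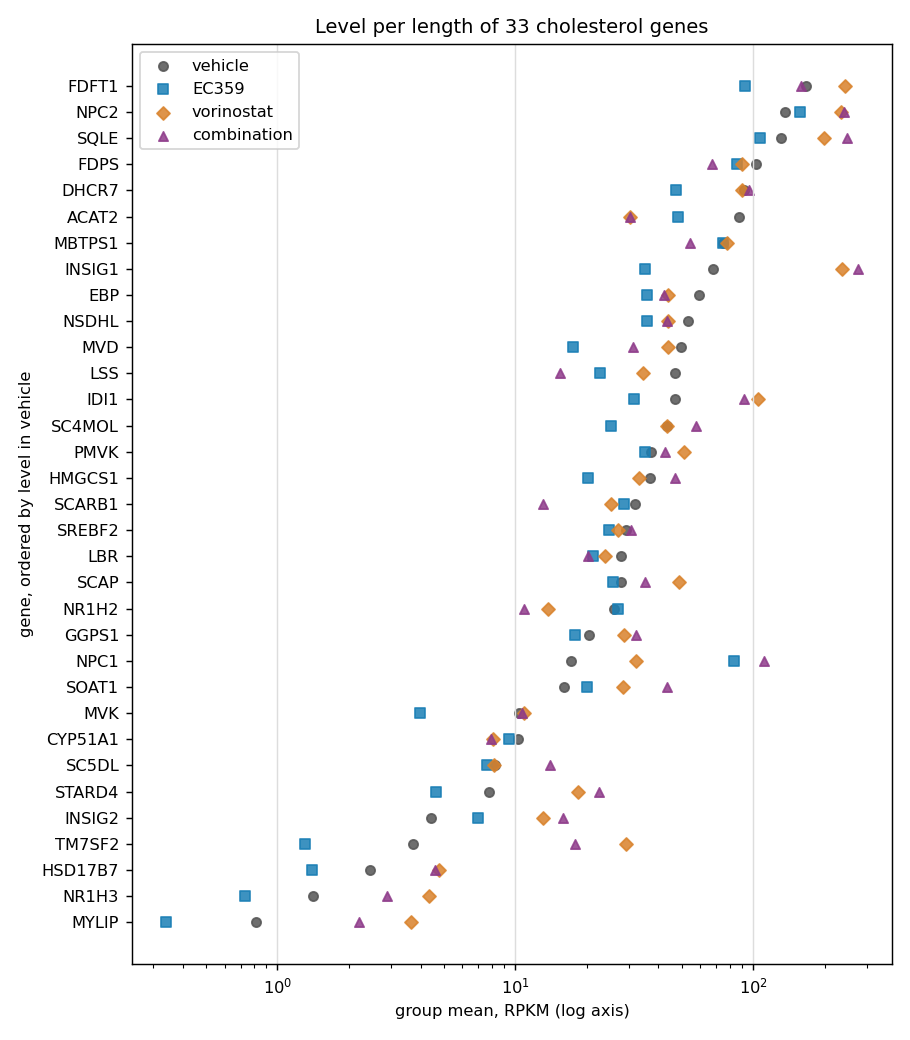
Mean RPKM of the 33 genes in each group (2 libraries a group, log axis), ordered by the level in vehicle. INSIG1 and TM7SF2 lie far to the right of vehicle in both groups with vorinostat, and NPC1 does so in both groups with EC359.

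Other genes of the same biology were followed as lists fixed by function. The fatty acid synthesis list, which the related factor SREBF1 (SREBP-1) controls, held 16 tested genes. With EC359, 4 were called lower (ACSS2, SCD, FADS2 and PNPLA3), against 1.72% of all genes, and 8 were lower at any fold, against 4.01%, with a median of -0.54, compared with -0.02 over all genes. The largest of these changes was that of FADS2, a desaturase of polyunsaturated fatty acids, at 504 and 529 CPM in vehicle and 181 and 191 with EC359 (lower value first), which fell by 1.47 ± 0.09 (edgeR adjusted p = 9.83e-06). The call of PNPLA3 was lost in 9 of 16 alternatives (adjusted p of up to 0.0731), while ACSS2, SCD and FADS2 passed in all of them. Without EC359 replicate 1 and without replicate 2 the change of FADS2 was -1.4332 and -1.4999. With vorinostat, 1 of the 16 was called higher, against 16.8% of all genes, and 3 lower, against 13.3%. The median was -0.20, compared with 0.03 over all genes. The largest of these vorinostat changes was that of ELOVL6, at a mean of 52.7 CPM in vehicle and 12.8 with vorinostat. The interaction called 3 of the 16 higher, against 1.62% of all genes, namely ACSS2, SCD and LPIN1, the largest being LPIN1, a phosphatidate phosphatase (1.21 ± 0.12, edgeR adjusted p = 0.000834). All 3 were lost with any 1 vehicle, vorinostat or combination library left out (adjusted p of up to 0.0542).

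Of 15 other sterol regulators, 12 genes of the isoprenoid branch and protein prenylation and 9 genes of oxysterol metabolism and liver X receptor action that were tested, EC359 called none by edgeR's test or DESeq2, with 3 genes of each list at an unadjusted p under 0.05. SREBF1 was the regulator that passed at any fold (-0.98 ± 0.09, edgeR adjusted p = 0.000111), though not in the fit on the 4 libraries compared (adjusted p = 0.0118), and its change without EC359 replicate 1 and without replicate 2 was -0.88 and -1.08. SREBF1 lay between 349.8 and 354 CPM in vehicle, between 166 and 190.3 with EC359, between 1462 and 1475 with vorinostat and between 301 and 308 with the combination. Its vorinostat libraries stood far above all others. SREBF1 rose by 2.06 ± 0.09 with vorinostat (edgeR adjusted p = 3.19e-07), fell by 2.27 ± 0.09 when EC359 was added to it (edgeR adjusted p = 7.02e-07), and had an interaction of -1.29 ± 0.12 (edgeR adjusted p = 0.000635), opposite in sign to those of the 5 genes above and lost without combination replicate 1 (adjusted p = 0.0114). TMEM97, a sterol-regulated protein that binds NPC1, was the largest of the list's calls in the combination against vehicle (-1.41 ± 0.12, edgeR adjusted p = 8.83e-06).

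Of 24 other genes of cholesterol uptake and transport that were tested, EC359 called 2 higher, VLDLR and LRP8, against 1.94% of all genes, and 1 lower, CAV1, against 1.72%. Without EC359 replicate 1 and without replicate 2 these changes were 1.32 and 1.22 for VLDLR, 1.15 and 1.40 for LRP8 and -1.14 and -1.23 for CAV1. LRP8, a lipoprotein receptor, lay between 36.4 and 37.5 CPM in vehicle and between 81.6 and 96.9 with EC359, and rose by 1.27 ± 0.12 (edgeR adjusted p = 0.00012). OSBPL8, a lipid transfer protein of the oxysterol-binding family, rose by 1.55 ± 0.10 when EC359 was added to vorinostat (edgeR adjusted p = 2.02e-05), the list's only call there, against 3.37% of all genes called higher. Of the prenylation list, RABGGTB, a subunit of the Rab geranylgeranyl transferase, passed at any fold with EC359 (0.89 ± 0.12, edgeR adjusted p = 0.00103, and 0.75 and 1.03 without EC359 replicate 1 and 2), and was lost without either vehicle library and in the fit on the 4 libraries compared (adjusted p of up to 0.0218). Vorinostat called 2 of the 12 genes of that list lower, a share near the 13.3% of all genes, the larger change being that of PGGT1B, a subunit of the geranylgeranyl transferase (-1.20 ± 0.17, edgeR adjusted p = 0.000214). Of the oxysterol list, vorinostat called 3 of 9 genes higher, against 16.8% of all genes, and 1 lower, against 13.3%, the largest change being that of the brain sterol hydroxylase CYP46A1, which lay between 0.0467 and 0.0472 CPM in vehicle and between 1.62 and 2.26 with vorinostat.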

How the data were processed

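Total RNA was measured in 8 libraries of 50-base single-end reads. Per the submitters' processing notes and the labels, the authors demultiplexed with bcl2fastq, aligned to hg19 with TopHat2 2.0.8b and counted reads on genes with HTSeq, whose version and strand setting are not given in the sources used here. The deposited values are raw counts per gene symbol, without normalization. The 5 summary lines of each list were left out; reads on genes made up 85.1% to 88.1% of unique alignments.

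Genes were filtered by filterByExpr, scaled by TMM and fitted with 1 mean per group in edgeR 4.0.16 (R 4.3.3), with a quasi-likelihood F test and Benjamini-Hochberg adjustment over 13694 genes. Standard errors were derived from the log2 fold change and the F statistic (its size over the root of F). As alternatives, RLE and total-count scaling, DESeq2 1.42.0, other filters and thresholds, fewer libraries and a replicate block were run. A crossed block was added after seeing the data.

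The members and lists were chosen with earlier results of these data known. Values per library are given for members called in a comparison or in the interaction. Of other lists, the called gene with the largest change in each comparison shown was named, and other genes of those lists were named after their values were seen. Gene positions and lengths came from GENCODE v44 on GRCh37, which hg19 shares, and upstream sequences from RefSeq on GRCh38.p14, with no conversion between builds. No 2 libraries of a group agreed within sampling noise (chi-square per degree of freedom 2.28 to 51.4). Some genes of cholesterol biology are not reported here. Figures were drawn with matplotlib 3.10.9 in Python 3.11.15.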

Additional observations from a re-analysis of the deposited data

Results flagged for a closer look

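Among the 33 genes, the effect of EC359 differed with and without vorinostat, by edgeR's test of the interaction, for HMGCS1 (1.37 on the log2 scale), MVK (1.35), SC4MOL (1.20), INSIG1 (1.17) and DHCR7 (1.05). In all 5 the change with EC359 was lower without vorinostat than with it. Among the other lists the same test gave LPIN1 at 1.21, ACSS2 at 1.18, OSBPL8 at 1.11, SCD at 0.90 and CAV1 at 0.72. In the opposite direction it gave SREBF1 at -1.29 and VLDLR at -1.08. Each of the 12 had an adjusted p under 0.01, and groups of 2 libraries are too small to test a single library against the rest of its group. All but SREBF1 and HMGCS1 were lost with any 1 vehicle, vorinostat or combination library left out, HMGCS1 with any of these left out but combination replicate 2, and SREBF1 without combination replicate 1. CAV1 was lost also with total counts or a replicate block. VLDLR rose with EC359 alone (1.27 ± 0.10, edgeR adjusted p = 5.27e-05) and its difference on top of vorinostat was 0.18 ± 0.10 (edgeR adjusted p = 0.209).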

How the results depend on the processing

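The number of the 33 genes called by edgeR was most sensitive for EC359 against vehicle and for the interaction. For EC359 against vehicle it was 5, and it was 1 (NPC1) in a fit on the 4 libraries compared, 14 with no fold threshold, and 3 to 8 with 1 library left out, 3 without vehicle replicate 2 or EC359 replicate 1 and 8 without EC359 replicate 2. With no fold threshold it was 18 in place of 8 for vorinostat against vehicle, 23 in place of 12 for the combination against vehicle, 9 in place of 2 for the combination against vorinostat, and 26 in place of 16 for the combination against EC359. With 1 library left out these counts were 8 in each fit, 10 to 12, 2 to 3, and 14 to 17. The interaction gave 5, and 13 with DESeq2, 13 at an adjusted p under 0.05, and 0 to 15 with 1 library left out (15 to 19 at an unadjusted p under 0.05 where it was 0). In a fit with 1 library left out, the group that lost it added nothing to the spread. The cause of these differences was not tested. A replicate block gave 4, 8, 11, 2, 16 and 5 genes in the 6 tests; the labels share numbers only, and the deviations of same-numbered libraries correlated between -0.17 and 0.23. A crossed block gave 10 for the interaction. Over all genes the interaction called 288, compared with 713 by DESeq2, 189 with the replicate block and 477 with the crossed block. Of 95 changes of single genes that passed, none reversed, and 73 of 90 held in fits on the 4 libraries compared; 13 of the 17 lost were those of EC359 against vehicle. Counts of 2 libraries a group limit the precision, most for MYLIP, NR1H3, TM7SF2 and HSD17B7, which lay under 10 CPM in vehicle.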

Other observations

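Of the other lists, LIPA, LPCAT3 and CAV1, chosen after their values were seen, each fell with EC359, whereas NPC1 rose. LIPA, the acid lipase that frees cholesterol from its esters in the lysosome, was at 139 CPM in both vehicle libraries. It was at 98.8 and 101 CPM in the EC359 libraries, 377 and 379 in those with vorinostat and 279 and 311 in the combination. It fell by 0.48 ± 0.09 with EC359 (edgeR adjusted p = 0.00635, lost in 8 of 16 alternatives with an adjusted p of up to 0.0686) and rose by 1.44 ± 0.09 with vorinostat (edgeR adjusted p = 1.56e-06). LPCAT3, a phospholipid acyltransferase known as a liver X receptor target, fell by 0.95 ± 0.10 with EC359 (edgeR adjusted p = 0.000222, and 0.0131 in the fit on the 4 libraries compared) and rose by 1.58 ± 0.10 with vorinostat (edgeR adjusted p = 1.48e-06). CAV1, the coat protein of caveolae, fell with each treatment against vehicle, the log2 change being -1.19 ± 0.07 under EC359, -1.88 ± 0.08 under vorinostat and -2.36 ± 0.08 under both drugs (edgeR adjusted p = 1.4e-05, 2.45e-07 and 5.23e-08).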
